A study of Mus musculus with 6 samples.

Results

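Rag1, Rag2, Dntt, Il7r, Ltb, Cnn3 and Ly6d, 7 genes of early lymphoid development among 18194 measured genes, were followed across 6 arrays of mouse bone marrow progenitors. The members were taken by gene symbol, all 7 were found, and they are represented by 15 probe sets. They were chosen by their differences between the GFP-positive and GFP-negative groups of these same arrays, so those differences are given as a description and without a test. The cells were lineage-negative, cKit-positive and Sca1-positive, the marrow fraction in which blood stem cells and multipotent progenitors are found. All came from mice aged 6 weeks with 1 reporter allele at Hes1 (Hes1 GFP/WT), in which GFP reads out the Hes1 locus and the other allele is wild type. Cells sorted as GFP-positive and cells sorted as GFP-negative were hybridised to 3 arrays per group, numbered here by their replicate number, of which array 1 was from a female and arrays 2 and 3 from males. The labels do not say whether arrays came from separate animals or from pools. Array 1, being female, came from other mice than arrays 2 and 3, but the spread between arrays 2 and 3 may be technical. The comparison asks how the early lymphoid programme differs between progenitors in which the reporter of Hes1, a repressor induced by Notch, was on or off.

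Lymphoid cells build their antigen receptors by V(D)J recombination. The RAG1 and RAG2 proteins together form the recombinase that cuts the receptor genes, and terminal deoxynucleotidyl transferase, encoded by Dntt, adds untemplated nucleotides to the cut ends before they are joined. Multipotent progenitors of the marrow begin to transcribe several of these genes before they commit to a lineage, and signalling through the interleukin-7 receptor, LY6D at the cell surface and RAG expression mark successive steps toward the B lineage.

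In GFP-positive cells Rag1, Ly6d and Il7r were higher, Cnn3 and Dntt were lower, and Rag2 and Ltb overlapped between the groups. By level, on the log2 scale of the deposited intensities, Rag1 was 8.47-fold, Ly6d 5.10-fold and Il7r 3.43-fold higher on average. Cnn3 was 2.36-fold and Dntt 1.39-fold lower. Some of these sizes are uncertain. Rag1 was close to background in GFP-negative cells, and the size for Cnn3 depends on the probe set. That of Il7r rests largely on GFP-negative replicate 3, without which its log2 difference was 0.66. The groups did not overlap for 5 of the 7 members: 3 were higher on every GFP-positive array, beside 5.89% of all genes, and 2 were lower, beside 5.51% of all genes. By limma 0 of the 18194 genes (0.0%), and so 0 of the 7 members, passed an adjusted p of 0.05, and the smallest adjusted p of any gene was 0.0956. At an unadjusted p under 0.05, 2 members were higher and 2 lower, beside 3.33% and 3.38% of all genes. Since the same contrast served to choose the members, nothing is read from these counts. A positive difference was seen in 3 of the 7 members, with a median of -0.46, beside 9325 of all 18194 genes and a median of 0.008. The members' median turned to 0.24 without GFP-positive replicate 1 and to 0.10 in the male arrays alone, in both cases the value of Rag2. The limma fit was made over all 6 arrays, and a value is a log2 intensity and a difference GFP-positive minus GFP-negative unless stated otherwise.

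**Figure D1:**
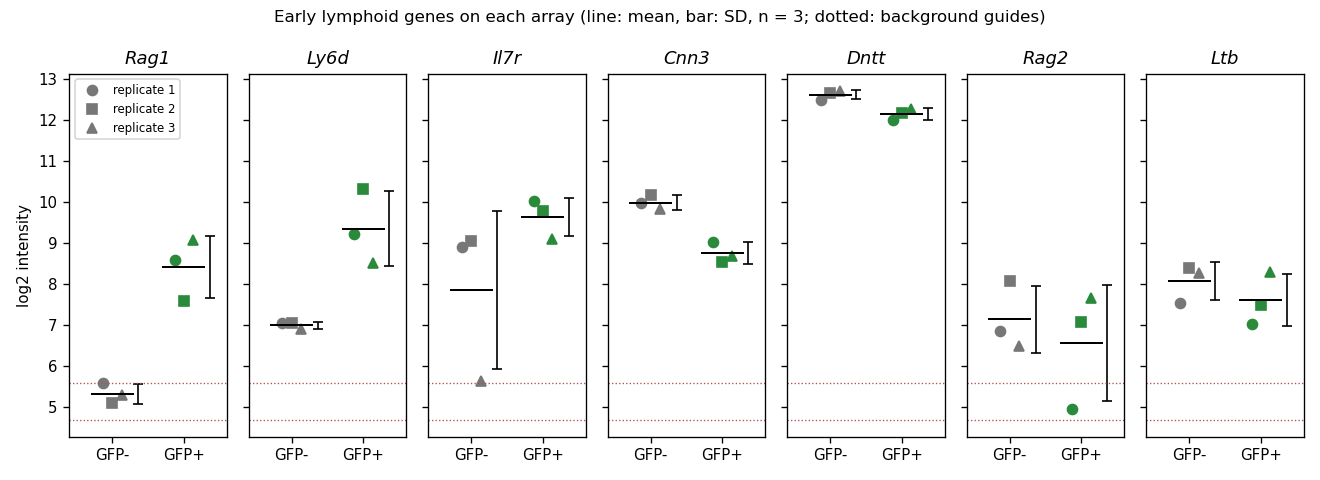
Log2 intensity (vertical axis) of the probe set standing for each of the 7 genes on each GFP-negative (grey) and GFP-positive (green) array. Horizontal lines are group means, bars are SD (n = 3), and dotted lines are background guides at 4.69 and 5.59. Rag1, Ly6d and Il7r lie higher and Cnn3 and Dntt lower in GFP-positive cells with no overlap, while Rag2 and Ltb overlap.

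The bases upstream of the annotated start are shown for the neighbouring recombinase genes Rag1 and Rag2, whose signals did not vary alike, and for Dntt and Cnn3, the members that were lower. Each window is the 250 bases before the start given by the RefSeq promoter entry (GRCm38.p6), read 5′ to 3′ on the gene's strand, and capitals mark E-box letters (CANNTG, the same on both strands). RefSeq promoter entries were matched for 6 of the 7 members.
Rag1, chr2:101649533-101649782, minus strand: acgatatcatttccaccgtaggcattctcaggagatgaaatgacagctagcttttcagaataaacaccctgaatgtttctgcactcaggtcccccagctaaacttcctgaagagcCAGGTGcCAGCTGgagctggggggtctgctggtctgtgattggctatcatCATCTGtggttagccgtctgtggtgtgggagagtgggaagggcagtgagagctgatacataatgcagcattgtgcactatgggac
Rag2, chr2:101624462-101624711, plus strand: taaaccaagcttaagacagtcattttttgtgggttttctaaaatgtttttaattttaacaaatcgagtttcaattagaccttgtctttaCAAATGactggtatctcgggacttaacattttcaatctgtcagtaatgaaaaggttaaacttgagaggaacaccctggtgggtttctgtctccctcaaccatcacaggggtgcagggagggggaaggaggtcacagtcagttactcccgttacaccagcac
Dntt, chr19:41029025-41029274, plus strand: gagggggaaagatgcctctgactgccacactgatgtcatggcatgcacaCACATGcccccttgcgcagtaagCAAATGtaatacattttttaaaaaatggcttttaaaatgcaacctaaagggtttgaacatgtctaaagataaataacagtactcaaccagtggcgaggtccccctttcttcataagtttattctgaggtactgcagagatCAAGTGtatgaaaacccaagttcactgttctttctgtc
Cnn3, chr3:121426291-121426540, plus strand: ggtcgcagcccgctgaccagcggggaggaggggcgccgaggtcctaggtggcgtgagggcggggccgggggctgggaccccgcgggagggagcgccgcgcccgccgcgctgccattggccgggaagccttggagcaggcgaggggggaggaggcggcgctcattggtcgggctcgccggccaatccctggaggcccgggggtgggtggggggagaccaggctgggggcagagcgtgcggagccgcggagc
The Rag1 window holds 3 E-boxes and the Rag2 window 1, beside 3 in the Dntt window and 0 in that of Cnn3. Il7r has 3 and Ltb 1. The Il7r entry uses a start that lies inside the annotated gene, so part of its window overlaps the gene and its counts are not purely upstream. At least 1 such match occurs in 66.2% of the 32851 annotated windows of this length, and the median is 1 site. How usual 3 sites are was not computed, so nothing is read from the counts. CAGGTG, an E-box form that is contained in CANNTG and was searched on both strands, was found 1 time each in the Rag1 and Ltb windows, in 0 of the other 4, and in 17.2% of all windows. CACNAG, the N-box bound by Hes family repressors, was found 2 times in the Rag2 window, 1 time in that of Il7r, in 0 of the other 4 and in 36.7% of all windows, again on both strands. CACGNG, another sequence bound by Hes proteins, was found in 0 of the 6 and in 23.5% of all windows. The Cnn3 window was 78.8% G or C, at the 98.4th percentile of all windows, whereas those of Rag2, Dntt and Il7r were at 41.2%, 41.6% and 44.0%. The Rag1 and Ltb windows were at 50.8% and 63.2%, and the median of all windows was 52.4%. A match describes letters and not a bound site.

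Rag1 encodes the catalytic subunit of the recombinase. Its single probe set read 8.59, 7.59 and 9.07 on GFP-positive arrays 1, 2 and 3 and 5.60, 5.10 and 5.31 on the GFP-negative arrays. The lowest GFP-positive array lay 1.98 above the highest GFP-negative array. The means were 8.42 ± 0.76 (SD, n = 3) and 5.33 ± 0.25, a difference of 3.08 ± 0.40 (log2 ± SE). In GFP-negative cells Rag1 was close to background: the highest signal of 3 Y-linked genes in female arrays was 4.69 and the highest of Xist in male arrays 5.59, and the GFP-negative arrays lay between these guides or, in replicate 1, at the upper one. RMA shrinks differences near background, so the size of the Rag1 difference is uncertain. Leaving out each array in turn gave differences between 2.76 and 3.50.

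Rag2, the regulatory subunit of the recombinase, lies next to Rag1 on chromosome 2, and the genes are usually switched on together in lymphocytes. Its single probe set read 4.96, 7.08 and 7.67 on GFP-positive arrays 1, 2 and 3 and 6.86, 8.07 and 6.49 on the GFP-negative arrays. GFP-positive array 1 was the lowest of all 6 and lay between the background guides, and GFP-positive arrays 2 and 3 lay within the range of the GFP-negative ones. The means were 6.57 ± 1.42 (SD, n = 3) and 7.14 ± 0.82, a difference of -0.57 ± 0.79 (log2 ± SE). The sign of the Rag2 difference was not stable, at 0.24 without GFP-positive replicate 1, 0.10 in the male arrays alone and -1.12 without GFP-positive replicate 3. Over the 6 arrays Rag1 and Rag2 had a Pearson correlation of -0.30, given as a description of these arrays.

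The other measured genes of the locus had smaller differences than Rag1. Iftap, an intraflagellar transport gene whose annotated span runs into that of Rag2, read 9.63, 9.85 and 10.39 on GFP-positive arrays 1, 2 and 3 and 10.82, 10.78 and 10.62 on the GFP-negative arrays. The GFP-positive arrays were the lower ones, with a difference of -0.78 ± 0.23 (limma adjusted p = 0.574), but its other 3 probe sets, all dimmer, were between 0.32 and 0.52 and the mean over all 4 gave 0.11. Traf6, a signalling adaptor on the other side, was at -0.37 ± 0.42 (limma adjusted p = 0.966) with 5 probe sets between -0.78 and 0.03. Of the 5 measured neighbours 0 passed by limma, 2 had a positive difference (3 without GFP-positive replicate 1) and the median was -0.35 (0.02 without that array). Prr5l was at 0.85 ± 0.38 and Trim44 at -0.35 ± 0.17 (limma adjusted p = 0.791 and 0.819).

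Dntt encodes terminal deoxynucleotidyl transferase, and its signal was far above the background guides on every array. The probe set standing for it read 12.00, 12.16 and 12.28 on GFP-positive arrays 1, 2 and 3 and 12.50, 12.66 and 12.71 on the GFP-negative arrays. Every GFP-positive array was below every GFP-negative array, by a gap of 0.21. The difference was -0.48 ± 0.16 (log2 ± SE), from means of 12.15 ± 0.14 (SD, n = 3) and 12.62 ± 0.11. All 3 Dntt probe sets separated the groups in this direction, from -0.86 to -0.48. The spread between arrays was small enough that leaving out each array in turn moved the Dntt difference only between -0.54 and -0.40.

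The related polymerases and the factors that assist cutting and joining had small differences. Polm and Poll, which fill gaps during end joining, were at 0.20 ± 0.36 and -0.22 ± 0.35 (limma adjusted p = 0.978 and 0.975). Of 12 measured cofactor and end-joining genes 0 passed by limma in either direction, 5 had a positive and 7 a negative difference, and the median was -0.14. The genes with the smallest p were Hmgb2, a DNA-bending protein that helps RAG bind its signal sequences, at 0.35 ± 0.18, the damage kinase Atm at -0.27 ± 0.20 and the ligase partner Xrcc4 at -0.50 ± 0.39 (limma adjusted p = 0.833, 0.951 and 0.957). In 0 of these 12 genes were the groups separate, beside 11.4% of all genes in either direction.

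Il7r encodes the alpha chain of the interleukin-7 receptor, which supplies survival and growth signals to lymphoid progenitors. The brighter of its 2 probe sets read 10.03, 9.78 and 9.11 on GFP-positive arrays 1, 2 and 3 and 8.91, 9.05 and 5.63 on the GFP-negative arrays. The groups did not overlap, but the gap was only 0.07, and GFP-negative replicate 3 lay far below the other GFP-negative arrays. The means were 9.64 ± 0.47 (SD, n = 3) and 7.86 ± 1.93, a difference of 1.78 ± 0.95 (log2 ± SE), which became 0.66 without GFP-negative replicate 3. The dimmer probe set gave a clearer separation. It read 8.11, 7.34 and 6.91 on GFP-positive arrays 1, 2 and 3 and 5.25, 5.81 and 5.65 on the GFP-negative arrays, with a gap of 1.09 and a difference of 1.88 ± 0.35. On this second probe set GFP-negative replicate 3 was level with the other GFP-negative arrays, but all 3 lay near the higher background guide of 5.59. Being level there does not settle the low reading of replicate 3 on the brighter set, 5.63, which is also near that guide. The size of the difference on the dimmer set is therefore uncertain.

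Of 13 measured partners and signalling genes of the interleukin-7 receptor 0 passed by limma, 2 had a positive and 11 a negative difference (4 and 9 without GFP-positive replicate 1), and the median was -0.13. Bcl2, a survival protein induced by interleukin-7, read 11.93, 11.96 and 11.66 on GFP-positive arrays 1, 2 and 3 against 11.54, 11.12 and 10.55, a difference of 0.78 ± 0.28 (limma adjusted p = 0.667). On that probe set the groups were separate, but the mean over the probe sets of Bcl2 gave 0.06. The lipid kinase subunit Pik3cd at -0.96 ± 0.23 and the kinase Pim1 at -0.74 ± 0.32 lay the other way, also with separate groups (limma adjusted p = 0.472 and 0.765), although the mean over the probe sets of Pik3cd gave 0.23. Jak3, the kinase attached to the shared gamma chain, was at -0.24 ± 0.44 (limma adjusted p = 0.98), and its sign changed under some alternatives.

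Ltb encodes lymphotoxin beta, a membrane ligand made by lymphoid cells that acts on the lymphotoxin beta receptor of stroma. It read 7.04, 7.49 and 8.29 on GFP-positive arrays 1, 2 and 3 and 7.55, 8.39 and 8.27 on the GFP-negative arrays. The groups overlapped, and in both groups replicate 1 was the lowest array. The difference was -0.46 ± 0.39 (log2 ± SE), from means of 7.61 ± 0.63 (SD, n = 3) and 8.07 ± 0.46. It was -0.80 without GFP-positive replicate 3, -0.72 without GFP-negative replicate 1, -0.30 without GFP-negative replicate 2 and -0.18 without GFP-positive replicate 1. Its partner ligand Lta stayed at or below the higher background guide on all 6 arrays. The receptor Ltbr was at -0.07 ± 0.26 (limma adjusted p = 0.992). Of 9 measured genes of this pathway 0 passed by limma, and the median was -0.07. The difference was positive in 2 and negative in 7 (4 and 5 without GFP-positive replicate 1). In 0 of the 9 were the groups separate, beside 11.4% of all genes in either direction. Traf2, Tnfsf14 and Nfkb2 had the smallest p, with differences of 0.38 ± 0.34, 0.25 ± 0.18 and -0.25 ± 0.22 (limma adjusted p between 0.948 and 0.962), and the first of these turned negative in the male arrays and the second with the mean over probe sets.

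Ly6d encodes a small lipid-anchored surface protein whose appearance divides common lymphoid progenitors that keep several fates from those that turn to the B lineage. Its probe set read 9.22, 10.33 and 8.51 on GFP-positive arrays 1, 2 and 3 and 7.06, 7.05 and 6.90 on the GFP-negative arrays. The GFP-negative arrays were nearly level, and the lowest GFP-positive array lay 1.46 above the highest of them. The difference was 2.35 ± 0.45 (log2 ± SE), from means of 9.35 ± 0.91 (SD, n = 3) and 7.0 ± 0.09. Within the GFP-positive group Ly6d, Rag1 and Il7r did not follow a shared order: Rag1 was highest in replicate 3, Ly6d in replicate 2 and Il7r in replicate 1. Ly6d and Il7r were both lowest in replicate 3, the array in which Rag1 was highest.

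Cnn3 encodes calponin 3, an actin-binding protein of many non-muscle cells. The probe set standing for it read 9.04, 8.54 and 8.69 on GFP-positive arrays 1, 2 and 3 and 9.97, 10.18 and 9.83 on the GFP-negative arrays. All GFP-positive arrays were lower, by a gap of 0.79. The means were 8.76 ± 0.26 (SD, n = 3) and 9.99 ± 0.18, a difference of -1.24 ± 0.20 (log2 ± SE). All 6 Cnn3 probe sets were negative and 5 of them separated the groups. Their sizes were far apart, from -2.99 to -0.33. The largest differences were -2.99 ± 0.70 and -2.95 ± 0.57, and the smallest came from a probe set below the lower background guide on all arrays. For the -2.99 set GFP-positive arrays 2 and 3 also lay below the lower guide, at 3.76 and 4.61. For the -2.95 set GFP-positive array 2 lay below the higher guide, at 5.39, so the largest sizes are uncertain. The probe set whose groups overlapped, at -0.38 ± 0.51, is the only one of the 6 whose name lacks the x mark that Affymetrix gives to sets with probes matching other transcripts. It read 9.54, 7.75 and 8.46 on GFP-positive arrays 1, 2 and 3 and 9.17, 9.34 and 8.37 on the GFP-negative arrays, so GFP-positive array 1 was its highest. The size of the Cnn3 difference therefore depends on the probe set.

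**Figure D2:**
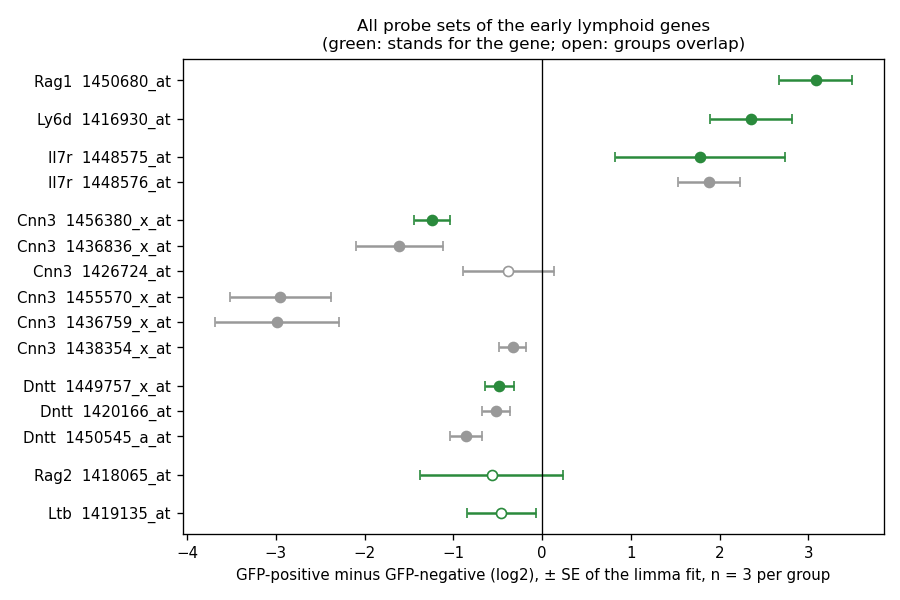
Difference between GFP-positive and GFP-negative arrays (horizontal axis, log2, with the SE of the limma fit, n = 3 per group) for all 15 probe sets of the 7 genes. Green marks the probe set standing for a gene and open points have overlapping groups; the 6 Cnn3 probe sets are all negative but range from -2.99 to -0.33.

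Relatives of Cnn3 and Ly6d had small differences. Cnn1, the smooth muscle calponin, was at 0.15 ± 0.18 and Cnn2 at -0.03 ± 0.22 (limma adjusted p = 0.971 and 0.997). Of 10 measured calponin and LY6 relatives 0 passed by limma, 5 had a positive difference (3 without GFP-positive replicate 1) and the median was -0.01. Lypd3 at 0.29 ± 0.20 and Lynx1 at -0.24 ± 0.21 had the smallest p besides Cnn1 (limma adjusted p = 0.931 and 0.962).

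The differences were next read within each replicate number, which joins the female arrays in number 1 and male arrays in numbers 2 and 3. Rag1 was at 2.99, 2.49 and 3.77 for numbers 1, 2 and 3, Ly6d at 2.16, 3.28 and 1.61, and Il7r at 1.12, 0.73 and 3.48. Cnn3 was negative in all 3, at -0.94, -1.64 and -1.14. Dntt was the most even member at -0.50, -0.50 and -0.42. For these members the groups did not overlap, so the same sign in all 3 numbers was fixed in advance and only the sizes are described. Rag2 was negative in numbers 1 and 2 at -1.90 and -0.98 and positive in number 3 at 1.18, and Ltb was at -0.50, -0.89 and 0.02. Whether the GFP difference itself differed between the sexes was tested with an interaction term in limma, a measure that did not serve to choose the members. By that test 0 of 18194 genes (0.0%) and 0 of the 7 members passed (7.24% of genes at an unadjusted p under 0.05; smallest adjusted p 0.217). The largest interaction among the members was that of Rag2, with the female difference lower by 2.00 ± 1.09 (log2 ± SE, limma adjusted p = 0.814). For Rag1 the female difference was lower by 0.14 ± 0.98 (limma adjusted p = 0.989) and for Cnn3 it was higher by 0.45 ± 0.38 (limma adjusted p = 0.87). With 1 female array a group, sex and replicate number 1 cannot be told apart, and the SEs leave room for sizeable differences.

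**Figure D3:**
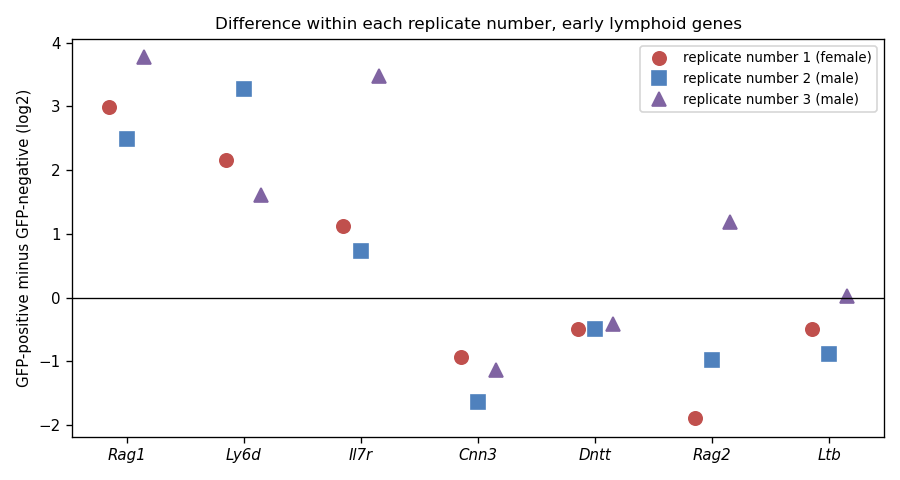
Difference between the GFP-positive and GFP-negative array of the same replicate number (vertical axis, log2) for each gene. Circles are the female arrays (number 1), squares and triangles male arrays (numbers 2 and 3). Rag1, Ly6d and Il7r are above 0 and Cnn3 and Dntt below 0 in all 3, which follows from their groups not overlapping. Rag2 lies at -1.90, -0.98 and 1.18.

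Among 8013 other genes with a log2 range of at least 1 over the 6 arrays, the pattern most like that of Rag1 belonged to Ebf1, a transcription factor of B lineage commitment, with a Pearson correlation of 0.994. Ebf1 read 7.44, 6.96 and 7.86 on GFP-positive arrays 1, 2 and 3 and 5.23, 4.94 and 5.34 on the GFP-negative arrays, so the arrays ranked alike within the GFP-positive group. The next were the mitotic kinesin Kif22 at 0.988 and Clca3a1, of a chloride channel regulator family, at 0.982. For Cnn3 the closest were the sialyltransferase St8sia1 at 0.988, the transcript 2610044O15Rik8 at 0.983 and the leukocyte receptor Cd244a at 0.983. These correlations rest on 6 arrays that share the group split and describe likeness of pattern alone. Among the members themselves, Cnn3 ran with Dntt (0.82) and against Ly6d (-0.91) and Rag1 (-0.90). Dntt likewise ran against Ly6d (-0.88) and Rag1 (-0.87), and Rag2 ran with Ltb (0.77). The members were chosen by the same group split, so for those with separate groups these signs largely follow from that choice.

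Of 17 measured transcription factors linked to the transcription of Rag or Dntt 0 passed by limma, 8 had a positive and 9 a negative difference, and the median was -0.11. The groups were separate in 8 of them, 4 higher and 4 lower, beside 5.89% and 5.51% of all genes. Ebf1, at 2.24 ± 0.27 (log2 ± SE, limma adjusted p = 0.177), was among the higher ones. As the mean over their probe sets Ebf1 was at 1.44 and Satb1 at -1.39, and the 3 GFP-negative values of Ebf1 lay below the higher guide. Satb1, a chromatin organiser that supports Rag expression, was at -0.90 ± 0.23 and Spi1, the factor PU.1 of myeloid and lymphoid progenitors, at -0.50 ± 0.17, both with separate groups (limma adjusted p = 0.506 and 0.665). Of 16 measured genes of lymphoid-primed and common lymphoid progenitors 0 passed by limma, 12 had a negative difference, and the median was -0.54. Il12a was at -1.83 ± 0.57, the stem and progenitor sialomucin Cd34 at -0.63 ± 0.17 and the actin-binding Lsp1 at -0.57 ± 0.19 (limma adjusted p = 0.605, 0.528 and 0.64). These lay on the side of Cnn3 and Dntt. The lists were drawn up with earlier results of these arrays known, so their counts are descriptions.

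Markers of committed B cell precursors were higher on the GFP-positive arrays, beside Rag1, Il7r and Ly6d. All 11 measured pro-B and pre-B markers had a positive difference, with a median of 1.35, although 0 passed by limma. In 6 of them the GFP-positive arrays were all higher, beside 5.89% of all genes. The smallest differences were 0.09 for Cd24a, 0.30 for Cd79b and 0.33 for Blk. Their summed intensity lay between 10300 and 18900 in GFP-positive and between 8070 and 9970 in GFP-negative arrays, and 0 of the 11 stayed below the lower guide on all arrays. The coactivator Pou2af1 read 7.32, 7.29 and 9.66 on GFP-positive arrays 1, 2 and 3, while all 3 GFP-negative arrays lay below the lower guide (limma adjusted p = 0.203). The surrogate light chain Igll1 read 6.31, 10.10 and 10.67, with all 3 GFP-negative arrays below the higher guide (limma adjusted p = 0.592). For both, the GFP-negative signal was not clearly above background, so no size of the difference is given. The receptor signalling chain Cd79a, above both guides on all arrays, was at 2.72 ± 0.60 (limma adjusted p = 0.445). Without GFP-positive replicate 1 all 11 remained positive, with a median of 1.76. The part of B cell precursors in the Rag1, Il7r and Ly6d values was not tested. In bulk samples, more cells of a type and more RNA per cell cannot be told apart.

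Cell cycle genes were also on the higher side. All 14 measured ones had a positive difference with a median of 1.66, 0 passed by limma, and their summed intensity was between 25800 and 36100 in GFP-positive and between 5570 and 19100 in GFP-negative arrays. Aurka, Cenpa and Ccnb2 were at 2.63 ± 0.41, 1.11 ± 0.23 and 1.12 ± 0.27 (limma adjusted p between 0.254 and 0.5), the first at 1.33 as the mean over its probe sets. The sum of endothelial and stromal markers was highest on 1 array, at 21700 in GFP-positive replicate 1, 3380 and 1830 in replicates 2 and 3 and between 2020 and 3100 in GFP-negative arrays. Of the 12 markers 10 had a positive difference with a median of 1.44, 0 passed by limma, and without that array 7 were positive with a median of 0.06. Cxcl12, a stromal chemokine, read 12.52, 9.27 and 8.33 on GFP-positive arrays 1, 2 and 3 and 5.34, 5.52 and 5.38 on the GFP-negative arrays, so it was higher on all GFP-positive arrays, and its difference without array 1 was 3.39. Over its probe sets the mean difference was 2.48. All 3 GFP-negative values of Cxcl12 lay below the higher guide, so these sizes are uncertain. Without that array Rag1 was at 2.99, Ly6d at 2.42, Il7r at 1.58, Cnn3 at -1.38 and Dntt at -0.40. Groups that are separate on all 6 arrays stay separate when 1 is left out. That the same 3 members lay above and the same 2 below was therefore fixed in advance, and nothing is read from it. In that smaller set 10.4% of all genes lay above and 13.2% below. Sparc and Cldn5 were at 3.17 ± 1.48 and 2.08 ± 1.05 (limma adjusted p = 0.804 and 0.851), and at 1.39 and 0.99 without that array. Of their GFP-negative values, 2 of Sparc and 1 of Cldn5 lay below the higher guide. The part of these cells in the members' values was not tested.

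Markers of other cell types that transcribe these genes gave mixed values. Of 10 measured thymocyte and T cell markers 6 had a positive difference, the median was 0.16 and 0 passed by limma. Their sums overlapped (947 to 1150 in GFP-positive and 847 to 1400 in GFP-negative arrays), and Ptcra, the pre-T receptor chain, stayed below the lower guide and Cd3g and Cd8b1 below the higher one on all arrays. Themis was at 2.38 ± 0.70, Bcl11b at 0.59 ± 0.27 and Cd4 at -0.65 ± 0.38 (limma adjusted p = 0.572, 0.794 and 0.884). The mean over probe sets gave 1.58 for Themis, 2.37 for Bcl11b and -0.16 for Cd4, so these depend on the probe set. Themis lay below the higher guide on all 3 GFP-negative arrays and below the lower one on 2, so its size is uncertain. Plasmacytoid dendritic cells, whose lymphoid precursors carry Ly6d, had 3 of 9 measured markers positive, a median of -0.24, 0 passing by limma, and sums of 4690 to 6260 against 5440 to 7490. Irf8, Cox6a2 and Spib were at -1.45 ± 0.86, -0.72 ± 0.32 and 0.75 ± 0.36 (limma adjusted p between 0.791 and 0.895). Of the sorted features, Kit lay between 9.69 and 10.72 on all arrays, far above both guides, with a difference of -0.43 ± 0.25 (limma adjusted p = 0.887). Ly6a, which encodes Sca1, was not analysed here. Hes1 itself read 7.36, 7.09 and 7.84 on GFP-positive arrays 1, 2 and 3 and 6.78, 6.79 and 7.10 on the GFP-negative arrays, so its transcript overlapped slightly between the sorted groups.

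**Figure D4:**
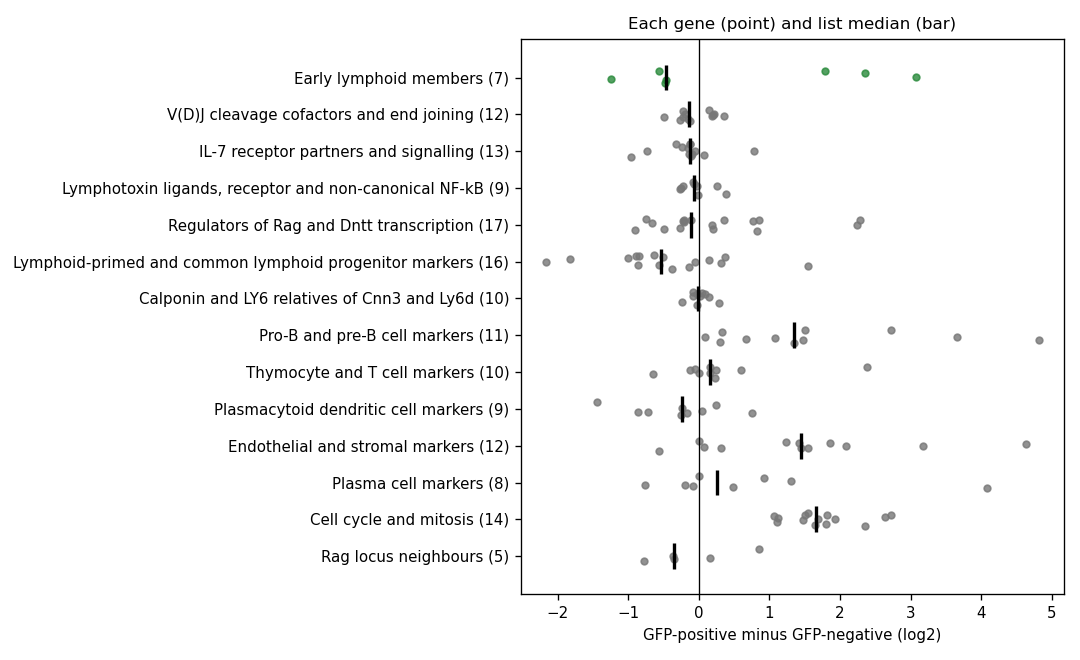
Difference between GFP-positive and GFP-negative arrays (horizontal axis, log2) for each measured gene of the early lymphoid set (green) and of the pathway and marker lists (grey), with the number of measured genes in brackets and bars at the list medians. The medians are -0.46 for the early lymphoid genes, 1.35 for pro-B and pre-B markers, 1.66 for cell cycle genes and -0.54 for lymphoid-primed progenitor genes.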

How the data were processed

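Expression was measured on 6 Affymetrix arrays from total RNA, of which 5 ng was amplified and labelled per the labels' protocols. The authors deposited 1 linear intensity per probe set, made with RMA per the submitters' processing notes; version and settings are not given here by any source used. RMA quantile-normalises arrays and compresses dim signals. For this work log2 was taken with no pseudocount. Of 45101 probe sets 34958 carried 1 gene symbol in the platform table (932 several, 9211 unlisted), giving 18194 genes, each represented by its probe set with the highest mean. Array medians of intensity lay between 74 and 78.5. Groups were compared with limma 3.58.1 (lmFit, eBayes; R 4.3.3) over all genes with Benjamini-Hochberg adjustment and a threshold of 0.05, and sex by an interaction term. The code was tested on simulated data. Figures used matplotlib 3.10.9.

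The members and gene lists were chosen with earlier results of these data known. Named genes were the members, the sort genes, 10 partners and neighbours, the 3 genes of smallest p in each list, and the 3 most like Rag1 and Cnn3 in pattern; a listed gene without a probe set of 1 symbol, such as Il2rg, was not analysed here. Alternatives covered probe set choice, level filters, normalisation, variance prior, sex, the replicate number and the omission of each array. The number of arrays limits the precision. Genomic sequence came from RefSeq.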

Additional observations from a re-analysis of the deposited data

How the results depend on the processing

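The 7 members kept the sign of their difference under each alternative that gave a value (15 or 16 per gene), except Rag2, which turned positive in the male arrays alone (0.10) and without GFP-positive replicate 1 (0.24). Most of these alternatives could not change a sign. Leaving out arrays cannot do so for a member with separate groups. The level filters, intensity trend, robust prior, replicate block and sex covariate leave each difference as it was. The kept signs are therefore no measure of stability. With the mean over a gene's probe sets Dntt moved to -0.62 and Cnn3 to -1.58. The median of the members, -0.46, ranged from -0.54 to 0.24 when single arrays were left out, was 0.10 in the male arrays, and was 0.65 above the 60th percentile of mean level, where Rag1, Rag2 and Ltb drop out and 4 members stay. The count of genes passing by limma, 0, became 1 with a filter at the 40th percentile, 2 at the 60th, 1 at an adjusted p of 0.1 and 1221 at an unadjusted p of 0.05, and ranged from 0 to 5 when single arrays were left out (5 without GFP-positive replicate 3); 0 of these calls at an adjusted p under 0.05 were members. The interaction with sex gave 18 genes with an intensity trend, 0 of them members. The labels state no pairing, so their replicate numbers were not taken as pairs and the replicate block served as an alternative. Same-numbered arrays had deviation correlations of 0.124, 0.05 and 0.092, and each array correlated best with its own number. Whether the arrays are paired is not settled by these values. With the replicate block 0 genes passed and the members' median was -0.46. Of 53 other named genes 11 changed sign under some alternative, among them Jak3, Pik3cd and Iftap, and 2 passed in 1 alternative (Pou2af1 and Jchain without GFP-positive replicate 3). The count of positive differences in a list was also computed without GFP-positive replicate 1, an alternative chosen after the data were seen. The GFP-negative Rag1 arrays and GFP-positive array 1 of Rag2 lay near background, so the sizes of those differences are uncertain. The same holds for the dimmer Il7r probe set and for the Cnn3 probe sets with the largest differences.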

Other observations

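The GFP-positive arrays differed among themselves in which B lineage and antibody genes accompanied Rag1. Igll1, the surrogate light chain of B cell precursors, read 6.31 on GFP-positive array 1 but 10.10 and 10.67 on arrays 2 and 3, whereas Rag1 read 8.59, 7.59 and 9.07 on arrays 1, 2 and 3 and Il7r 10.03, 9.78 and 9.11. Jchain, the joining chain of secreted IgM and IgA, read 9.97 and 9.95 on arrays 1 and 2 but 3.50 on array 3, the array with the highest Rag1. Of 8 plasma cell markers 4 had a positive difference, with a median of 0.25, 0 passed by limma, and their summed intensity was 2660 to 3880 in GFP-positive and 1770 to 2050 in GFP-negative arrays. Edem1 was at 0.92 ± 0.22 and Mzb1 at 1.31 ± 0.82 (limma adjusted p = 0.476 and 0.913). Themis, chosen by its small p among T cell markers, was highest in GFP-positive replicate 2 at 8.40, the array with the highest Ly6d at 10.33. Its GFP-negative arrays lay near background and its difference depends on the probe set. A shared highest array is not read as a link between these genes.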
